A study of Homo sapiens with 8 samples.

Results

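Collagens, laminin chains and the other main proteins of basement membranes were followed in EA.hy926 cells that had lost 1 of 2 endothelial enhancers. The genes were chosen by symbol alone, from the protein-coding transcripts of the deposited expression table. They comprise collagen α chains with a symbol of the form COL, number, A, number, laminin chains, and FN1, NID1, NID2, HSPG2, SPARC and AGRN. The genes described are 61 of the 27945 in the table, made up of 44 collagen chains, 11 laminin chains and 6 other genes. Of these, 27 were expressed at a level that allowed a test, and 34 were not.

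A basement membrane is a thin sheet of extracellular matrix under epithelia and endothelia and around muscle and fat cells. Laminins, trimers of an α, a β and a γ chain, assemble on the cell surface through receptors such as integrins and dystroglycan. Collagen IV, a trimer of α chains, forms a second network, and nidogens and the heparan sulphate proteoglycans perlecan (HSPG2) and agrin (AGRN) connect the networks. In blood vessels the typical endothelial laminins carry the α4 or α5 chain with β1 and γ1, and collagen IV is mainly built from α1 and α2 chains. The α3 and β3 chains occur in laminin-332, the typical laminin of epithelia that are anchored by hemidesmosomes.

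EA.hy926 is an immortalized line obtained by fusing umbilical vein endothelial cells with A549 lung carcinoma cells. The ΔE2 group held 3 libraries, each from a clonal line in which CRISPR/Cas9 had deleted E2, an enhancer on chromosome 16. The ΔSE12313-b group held 3 libraries from clonal lines without SE12313-b, another enhancer of the same super-enhancer, SE12313. The control group held 2 libraries of EA.hy926 control cells. All cells grew in high-glucose DMEM with fetal bovine serum, and their total RNA was sequenced after ribosomal RNA had been removed. A clone stems from 1 edited cell, while the labels do not say that the control cells were cloned or whether the control libraries came from separate cultures, so the p values measure the spread between these 8 libraries. The libraries held about 12070000 to 19100000 reads, and 7800000 to 13370000 of these lay on genes. ADAMTS18, the gene in cis that the deleted enhancers are linked to, was at 51 and 61 reads in the controls, 7 to 15 reads in ΔE2 and 12 to 22 reads in ΔSE12313-b. The spread between the controls was near counting noise (chi-square per degree of freedom 1.19), while pairs of clones gave 4.00 to 20.6 within ΔE2 and 8.41 to 22.9 within ΔSE12313-b.

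Levels are given in FPKM, fragments per kilobase of transcript scaled to the reads of the library, which is scaled by length and so allows levels of different genes to be compared. Changes are log2 fold changes of FPKM + 0.1 from a limma model over all 13789 genes tested. A gene was called when its p value, adjusted by the Benjamini-Hochberg method over all these genes, was under 0.05 and its change was at least 2-fold. Both deletions were set against the same control libraries, so their results are not independent of each other and are given side by side. In bulk RNA, a lower level cannot be told apart from fewer cells that express the gene.

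In ΔE2, 2 members rose and 8 fell. The risers were FN1 and COL17A1, and the fallers were LAMA5, COL7A1, COL4A5, COL18A1, LAMB3, COL4A6, COL16A1 and AGRN. COL7A1 entered the test only through its level in the controls, here and in ΔSE12313-b, and without it the fallers number 7 and 3. Of all genes tested in ΔE2, 11.2% were called higher and 8.36% lower, and the members' median change was -0.37 against 0.14 over all genes. An adjusted p under 0.05, whatever the size of the change, was reached by 20 members, 7 higher and 13 lower, and by 54.1% of all genes. In ΔSE12313-b, 3 members rose (COL17A1, FN1 and COL5A2) and 4 fell (LAMA5, COL7A1, COL4A5 and COL18A1). Here 14.7% of all genes were called higher and 7.83% lower, and the members' median was -0.14 against 0.27. An adjusted p under 0.05 was reached by 17 members, 7 higher and 10 lower, and by 59.4% of all genes. Centring each library on its median log2 ratio, which removes the shift of all genes, gave 2 higher and 8 lower in ΔE2, as before, and 2 higher and 5 lower in ΔSE12313-b, and quantile normalization gave 2 and 9 and then 3 and 7. Over all genes centring turned 1544 higher and 1153 lower into 1170 and 1464 in ΔE2, and 2032 and 1080 into 1201 and 1570 in ΔSE12313-b.

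**Figure D1:**
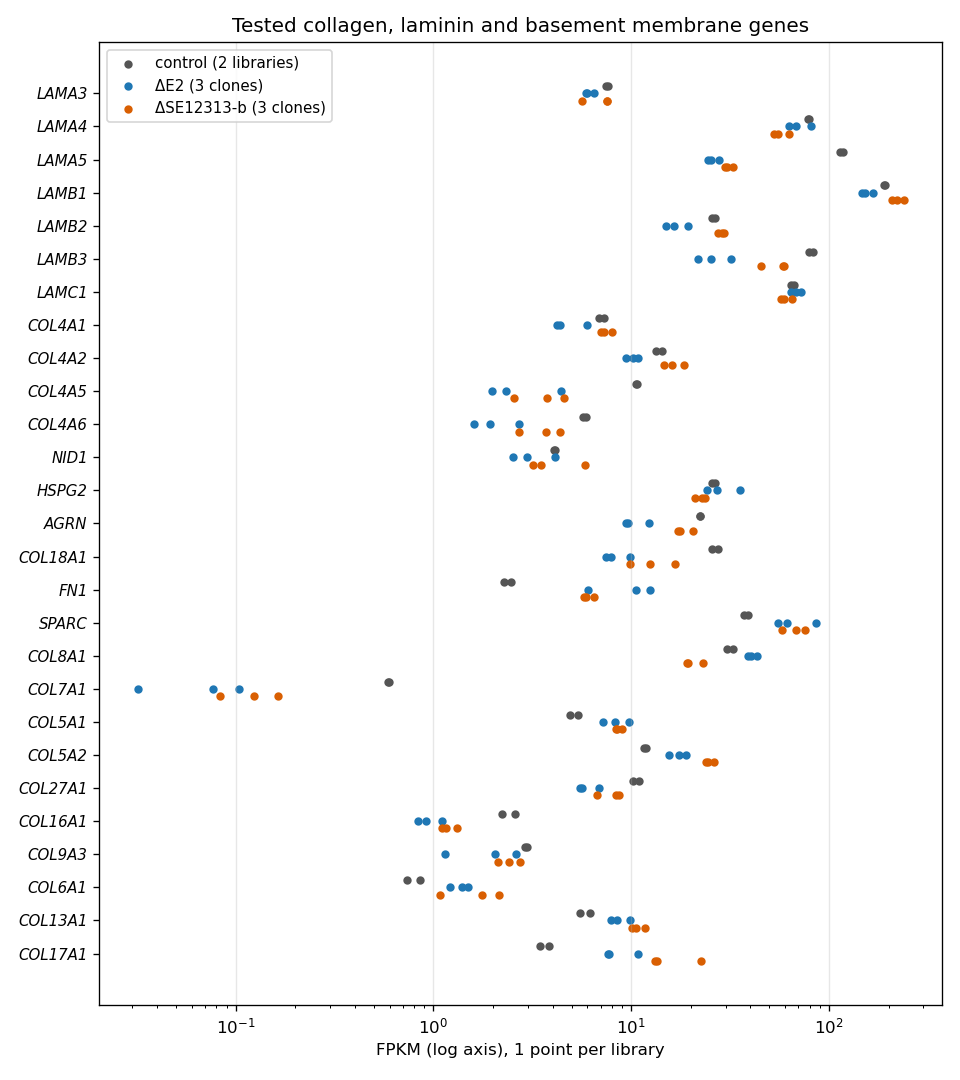
FPKM (log axis) of the 27 tested genes, 1 point per library, with control in grey, ΔE2 in blue and ΔSE12313-b in orange. All 6 clones lie left of both controls for LAMA5, LAMB3, COL4A5, COL4A6, AGRN, COL18A1, COL7A1, COL27A1, COL16A1 and COL9A3. They lie right of both for FN1, SPARC, COL5A1, COL5A2, COL6A1, COL13A1 and COL17A1. The share of all genes with such a separation was not counted, so these lists do not set the members apart from other genes. An adjusted p under 0.05 in limma was reached by 54.1% (ΔE2) and 59.4% (ΔSE12313-b) of all genes tested.

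**Figure D2:**
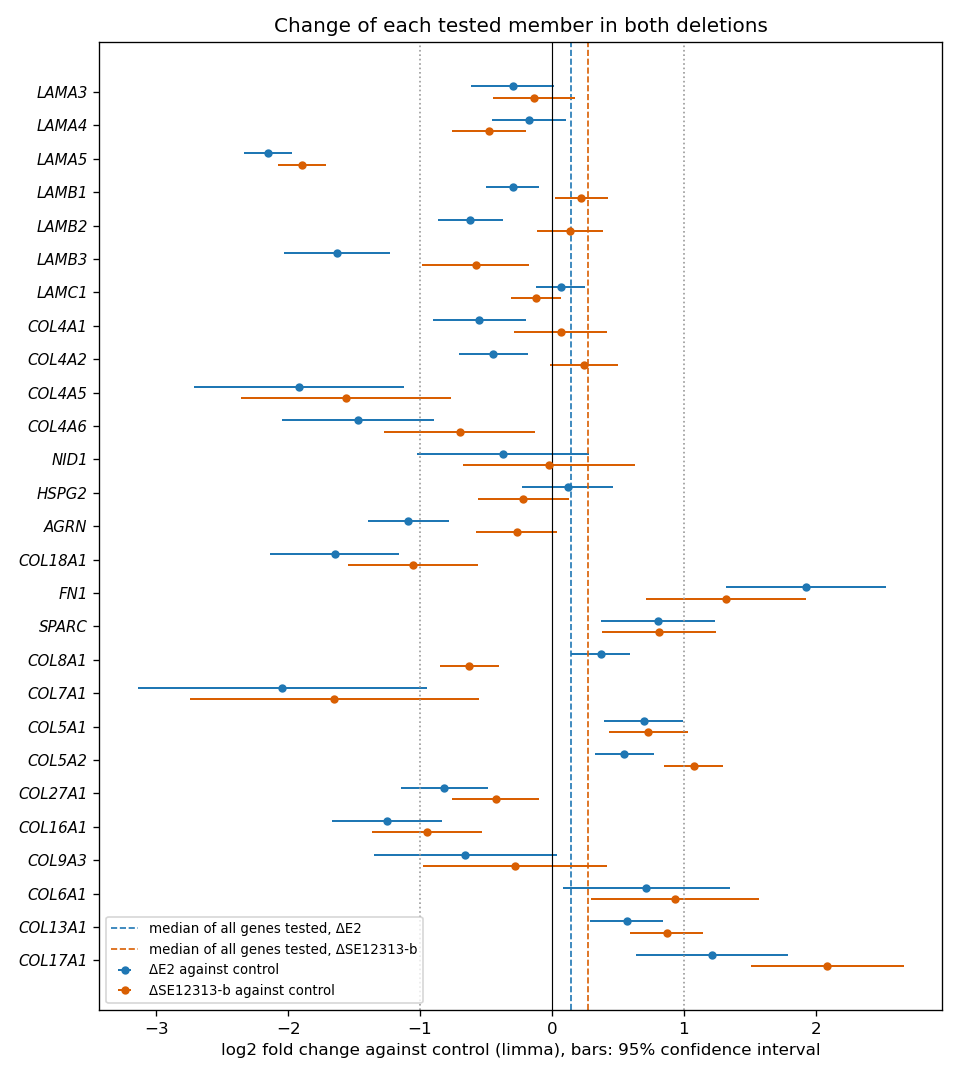
Log2 fold change of each tested gene in ΔE2 (blue) and ΔSE12313-b (orange) against control, with 95% confidence intervals, dotted lines at 2-fold and dashed lines at the median of all genes tested (0.14 and 0.27). LAMA5 has the narrowest interval of the genes beyond 2-fold, which spans -2.34 to -1.97 for ΔE2 and -2.08 to -1.71 for ΔSE12313-b.

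Of the laminin α chains, LAMA5 fell strongly in both deletions and LAMA4 and LAMA3 were not called. LAMA5 (chr20:60884116-60942368, minus strand, hg19), the α5 chain of endothelial and many epithelial basement membranes, had 118 and 113 FPKM in the controls, where it ranked 300 among the genes tested. It had 27.7, 25.4 and 24.5 FPKM in ΔE2 and 30.5, 32.6 and 29.7 FPKM in ΔSE12313-b, so that the groups of clones stood far below the controls and close to each other. Its mean fell 4.46-fold in ΔE2 (log2 fold change -2.15, SE 0.08, adjusted p = 7.01e-07) and 3.73-fold in ΔSE12313-b (-1.90, SE 0.08, adjusted p = 1.16e-06). LAMA4 (chr6:112429134-112575917), the α4 chain that is typical of endothelium and muscle, had 78.6 and 79.4 FPKM in the controls, 62.5, 81.2 and 67.8 FPKM in ΔE2 and 55.0, 52.9 and 62.7 FPKM in ΔSE12313-b. The ΔE2 clones overlapped the controls (-0.17, 95% confidence interval -0.45 to 0.11), and the ΔSE12313-b clones lay below them without reaching 2-fold (-0.48, adjusted p = 0.00985). LAMA3, the α3 chain of laminin-332, stayed between 5.66 and 7.63 FPKM in all libraries and was not called in either deletion. LAMA1 and LAMA2, the chains of early embryonic and of muscle laminins, had 3 to 25 and 4 to 17 reads per library and were not tested.

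As a share of the summed FPKM of the 5 α chains, LAMA5 held 56.5% to 57.7% in the controls, 22.5% to 28.8% in ΔE2 and 29.7% to 35.0% in ΔSE12313-b. The share of LAMA4 was 38.5% to 39.7%, 64.9% to 72.1% and 56.7% to 62.7% in the same order. The sum itself was 200 to 204 FPKM in the controls, 96.3 to 113 FPKM in ΔE2 and 91.3 to 100.04 FPKM in ΔSE12313-b, and LAMA4 was the leading α chain in every clone although its own FPKM was above both controls in 1 clone only. These shares are descriptions and were given no test.

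**Figure D3:**
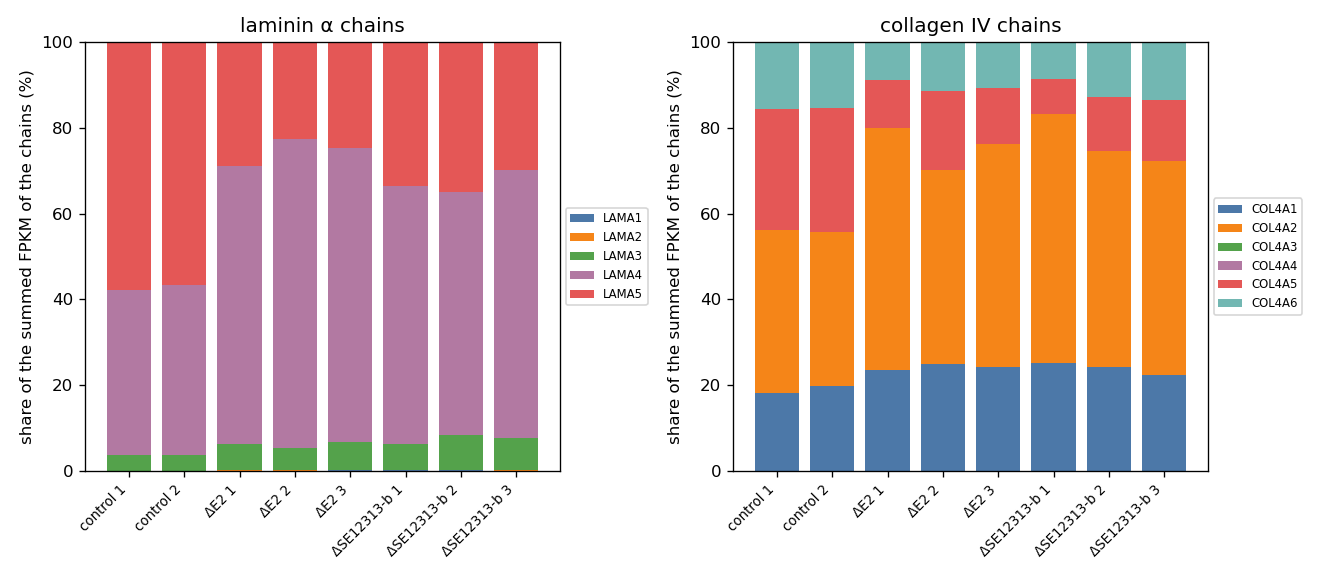
Stacked bars of the share (%) of each chain in the summed FPKM of the laminin α chains (left) and the collagen IV chains (right), 1 bar per library. LAMA5 gives 56.5% to 57.7% of the α chains in the controls and at most 35.0% in the clones, and COL4A5 with COL4A6 takes a smaller share of collagen IV in every clone than in either control.

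The laminin β chains differed between the deletions. LAMB3 (chr1:209788218-209825674), the β3 chain of laminin-332, had 82.5 and 78.9 FPKM in the controls, 25.2, 21.8 and 32.0 FPKM in ΔE2 and 58.7, 59.3 and 45.1 FPKM in ΔSE12313-b. It fell 3.06-fold in ΔE2 (-1.63, SE 0.17, adjusted p = 0.00017). In ΔSE12313-b it was lower than in both controls but under 2-fold (-0.58, SE 0.17, adjusted p = 0.0214). LAMB1, the β1 chain of most endothelial laminins and the most abundant of all members, had 189 and 191 FPKM in the controls, 146, 167 and 151 FPKM in ΔE2 and 238, 208 and 221 FPKM in ΔSE12313-b. It was not called, with -0.30 in ΔE2 (adjusted p = 0.0202) and 0.22 in ΔSE12313-b (adjusted p = 0.0543). LAMB2, the β2 chain of kidney, synapse and vessel wall laminins, had 26.4 and 25.6 FPKM in the controls, 15.1, 19.4 and 16.5 FPKM in ΔE2 and 27.5, 28.8 and 29.5 FPKM in ΔSE12313-b. Its ΔE2 clones all lay below the controls (-0.62, adjusted p = 0.00181) and its ΔSE12313-b clones above them (0.14, adjusted p = 0.298), neither at 2-fold. The small positive values of LAMB1 and LAMB2 in ΔSE12313-b turned negative when the libraries were centred.

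LAMC1 (chr1:182992595-183114727), the γ1 chain of nearly all laminins, was not called in either deletion. It had 64.3 and 66.3 FPKM in the controls, 64.5, 72.5 and 68.3 FPKM in ΔE2 and 56.9, 58.9 and 64.6 FPKM in ΔSE12313-b. LAMC1 moved by 0.07 in ΔE2 (95% confidence interval -0.12 to 0.25) and by -0.12 in ΔSE12313-b (-0.31 to 0.07).

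Collagen IV genes lie head to head in pairs, and 2 of the 3 pairs were expressed. COL4A1 (minus strand, start at 110959504) and COL4A2 (plus strand, start at 110959614) share chromosome 13 with 109 bases between their starts. COL4A6 (minus strand, start at 107682727) and COL4A5 (plus strand, start at 107683074) share chromosome X with 346 bases between them. Stretches between these annotated starts are shown (hg19, plus strand), from which the genes of each pair point in opposite directions. Other COL4A6 transcripts in the table start at 107681660, farther from COL4A5, at nearly the same FPKM. Which start these cells use was not tested. Annotated exon bases were left out, and at most the 300 bases nearest the gene on the plus strand were kept, so a stretch need not reach the other gene. Capitals mark CCAAT on either strand (ATTGG where it lies on the minus strand) and GGGCGG on either strand, the usual letters of NF-Y and Sp1 sites.
COL4A1-COL4A2, chr13:110959505-110959604: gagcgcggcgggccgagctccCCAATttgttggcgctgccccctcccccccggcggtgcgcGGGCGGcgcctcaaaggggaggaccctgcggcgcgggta
COL4A6-COL4A5, chrX:107682768-107683067: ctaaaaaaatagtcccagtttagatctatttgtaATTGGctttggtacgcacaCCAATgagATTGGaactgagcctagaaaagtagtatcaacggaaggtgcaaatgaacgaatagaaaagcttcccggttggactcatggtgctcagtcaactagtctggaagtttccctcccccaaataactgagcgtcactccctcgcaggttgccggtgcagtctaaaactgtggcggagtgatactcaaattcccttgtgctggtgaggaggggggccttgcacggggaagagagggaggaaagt

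The first stretch has 100 bases, 78% G+C, 1 CCAAT and 1 GGGCGG. The second has 300 bases, 48.33% G+C, 3 CCAAT and 0 GGGCGG. Neither holds TATAAA. Among windows of the same lengths just upstream of the starts of 11660 tested protein-coding genes, CCAAT on either strand is found in 21.24% of windows of 100 bases and 36.53% of windows of 300 bases, and GGGCGG in 47.02% and 63.13%. TATAAA is found in 2.281% and 7.882%. These matches describe letters and were not tested for binding.

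The pair on chromosome X fell in ΔE2, and its members moved unequally in ΔSE12313-b. COL4A5, the α5 chain found in kidney, skin and smooth muscle basement membranes, had 10.5 and 10.7 FPKM in the controls, 1.99, 4.44 and 2.32 FPKM in ΔE2 and 2.56, 3.73 and 4.59 FPKM in ΔSE12313-b. It fell 3.64-fold in ΔE2 (-1.92, SE 0.34, adjusted p = 0.00227) and 2.93-fold in ΔSE12313-b (-1.56, SE 0.34, adjusted p = 0.00523). COL4A6, its α6 partner, had 5.88 and 5.71 FPKM in the controls, 1.60, 2.70 and 1.93 FPKM in ΔE2 and 2.72, 3.70 and 4.37 FPKM in ΔSE12313-b. It fell 2.79-fold in ΔE2 (-1.47, SE 0.25, adjusted p = 0.00166) and was lower by under 2-fold in ΔSE12313-b (-0.70, SE 0.25, adjusted p = 0.0402). All 6 clones lay below both controls for each gene. The ratio of COL4A5 to COL4A6 was 1.79 to 1.87 in the controls, 1.203 to 1.64 in ΔE2 and 0.943 to 1.05 in ΔSE12313-b, 3 ranges that do not overlap. The other 22 tested protein-coding genes that start within 5 Mb had median changes of 0.38 and 0.34.

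The pair on chromosome 13 was not called. COL4A1, the α1 chain, had 6.84 and 7.30 FPKM in the controls, 4.23, 5.97 and 4.36 FPKM in ΔE2 and 7.95, 7.07 and 7.24 FPKM in ΔSE12313-b. COL4A2, the α2 chain, had 14.3 and 13.3 FPKM in the controls, 10.2, 10.8 and 9.39 FPKM in ΔE2 and 18.4, 14.7 and 16.1 FPKM in ΔSE12313-b. In ΔE2 every clone lay below both controls for each gene, with -0.55 (adjusted p = 0.0165) and -0.44 (adjusted p = 0.0113). In ΔSE12313-b the values were 0.07 (adjusted p = 0.722) and 0.24 (adjusted p = 0.0939), and both turned negative when the libraries were centred. The ratio of COL4A2 to COL4A1 overlapped between the groups, at 1.82 to 2.09, 1.82 to 2.41 and 2.08 to 2.32. A shorter COL4A1 transcript in the table (2548 bases) had a difference of -0.90 in ΔE2 and -0.15 in ΔSE12313-b between group means. COL4A3 and COL4A4, whose starts on chromosome 2 are separated by 5 bases, had at most 3 reads in any library.

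Of the proteoglycans and linkers tested, AGRN fell in ΔE2, and HSPG2 and NID1 were not called in either deletion. AGRN (chr1:955503-991499), a heparan sulphate proteoglycan that binds laminin and dystroglycan, had 22.3 and 22.1 FPKM in the controls, 12.3, 9.45 and 9.65 FPKM in ΔE2 and 20.6, 17.3 and 17.6 FPKM in ΔSE12313-b. It fell 2.12-fold in ΔE2 (-1.09, SE 0.13, adjusted p = 0.000318) and was not called in ΔSE12313-b (-0.27, adjusted p = 0.117). HSPG2, which codes for perlecan, had 26.6 and 25.7 FPKM in the controls, 27.0, 35.3 and 24.1 FPKM in ΔE2 and 23.7, 22.9 and 20.9 FPKM in ΔSE12313-b. The changes of HSPG2 were 0.12 (95% confidence interval -0.23 to 0.47) and -0.22 (-0.56 to 0.13), and that in ΔE2 turned negative without ΔE2 replicate 2, the clone with the highest value. NID1, nidogen-1, which bridges laminin γ1 and collagen IV, had 4.14 and 4.06 FPKM in the controls, 2.53, 4.14 and 2.96 FPKM in ΔE2 and 3.51, 3.19 and 5.87 FPKM in ΔSE12313-b. The clones of NID1 lay on both sides of the controls or touched them, and it was not called (-0.37 with adjusted p = 0.294, and -0.02 with adjusted p = 0.954). NID2 had at most 3 reads in any library.

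COL18A1 (chr21:46825052-46933634) codes for collagen XVIII, a basement membrane collagen that carries heparan sulphate and gives rise to endostatin. It had 27.3 and 25.6 FPKM in the controls, 7.91, 9.91 and 7.49 FPKM in ΔE2 and 12.5, 9.82 and 16.7 FPKM in ΔSE12313-b, with all clones below the controls. It fell 3.14-fold in ΔE2 (-1.65, SE 0.21, adjusted p = 0.000421) and 2.04-fold in ΔSE12313-b (-1.05, SE 0.21, adjusted p = 0.00334). Without ΔSE12313-b replicate 2, the clone with the lowest value, the change in ΔSE12313-b was -0.87 and no longer reached 2-fold. COL6A1, which lies on the same arm of chromosome 21 and codes for a chain of microfibrillar collagen VI, was in contrast higher in the clones, at 0.72 and 0.93, and was not called.

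FN1 (chr2:216279384-216300791), fibronectin, had 2.46 and 2.28 FPKM in the controls, 10.6, 6.07 and 12.4 FPKM in ΔE2 and 5.93, 5.79 and 6.46 FPKM in ΔSE12313-b. It rose 4.09-fold in ΔE2 (1.93, SE 0.26, adjusted p = 0.000559) and 2.56-fold in ΔSE12313-b (1.32, SE 0.26, adjusted p = 0.00315), and all 6 clones lay above both controls. The transcript kept for FN1 by the highest mean is a short one (2368 bases), and the 10 FN1 transcripts of the table gave differences of group means of 1.87 to 1.93 in ΔE2 and 1.21 to 1.32 in ΔSE12313-b. SPARC, a collagen-binding matricellular protein, had 37.02 and 39.1 FPKM in the controls, 55.3, 86.2 and 61.5 FPKM in ΔE2 and 68.3, 58.0 and 75.3 FPKM in ΔSE12313-b. All clones lay above the controls, by 0.80 (adjusted p = 0.00776) and 0.81 (adjusted p = 0.00643), which is under 2-fold.

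Collagens of anchoring structures moved in opposite directions. COL17A1 (chr10:105791046-105845638), the transmembrane collagen of hemidesmosomes, had 3.48 and 3.82 FPKM in the controls, 7.61, 10.8 and 7.71 FPKM in ΔE2 and 13.4, 13.1 and 22.4 FPKM in ΔSE12313-b. It rose 2.38-fold in ΔE2 (1.21, SE 0.25, adjusted p = 0.00439) and 4.48-fold in ΔSE12313-b (2.09, SE 0.25, adjusted p = 0.000231). The 61 other genes tested within 5 Mb of COL17A1 had a median of 0.18 in ΔE2 and 0.77 in ΔSE12313-b, and the part of this shift in its change was not tested. COL7A1 (chr3:48601506-48632593), the collagen of anchoring fibrils, had 68 and 65 reads in the controls, 18, 12 and 4 reads in ΔE2 and 18, 22 and 12 reads in ΔSE12313-b. These reads correspond to 0.592 and 0.595 FPKM, to 0.104, 0.077 and 0.032 FPKM and to 0.124, 0.164 and 0.083 FPKM. COL7A1 was called lower in both deletions (-2.04, SE 0.47, adjusted p = 0.00767, and -1.65, SE 0.47, adjusted p = 0.0175), but it entered the test only through its level in the controls, and with a pseudocount of 1 neither call remains.

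The fibrillar collagens were led by the 2 chains of collagen V, which starts collagen fibrils. COL5A2 (chr2:189896641-190044605) had 11.9 and 11.6 FPKM in the controls, 15.5, 17.4 and 18.8 FPKM in ΔE2 and 24.4, 23.8 and 26.4 FPKM in ΔSE12313-b, 3 groups that do not overlap. It rose 2.12-fold in ΔSE12313-b (1.08, SE 0.10, adjusted p = 5.3e-05), a call that is lost at 0.79 when the libraries are centred. In ΔE2 it was higher by under 2-fold (0.55, SE 0.10, adjusted p = 0.00202). Its partner COL5A1 had 4.88 to 5.39 FPKM in the controls and 7.22 to 9.75 FPKM in the 6 clones, with changes of 0.70 and 0.73. COL27A1, a fibrillar collagen of cartilage, was lower by 0.82 and 0.43 on the log2 scale and not called. The main chains of collagens I and III were near absent, with at most 13 reads of COL1A1, 6 reads of COL3A1 and 1 read of COL1A2 in any library.

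COL8A1 (chr3:99357440-99515577), the main chain of the network collagen of vessel walls and Descemet's membrane, had 32.7 and 30.6 FPKM in the controls, 43.1, 39.2 and 40.4 FPKM in ΔE2 and 23.01, 19.2 and 19.4 FPKM in ΔSE12313-b. The ΔE2 clones all lay above the controls (0.37, SE 0.10, adjusted p = 0.0136) and the ΔSE12313-b clones all below them (-0.63, SE 0.10, adjusted p = 0.0009), each under 2-fold. COL16A1 (chr1:32117848-32169768), a fibril-associated collagen, had 2.57 and 2.23 FPKM in the controls, 0.921, 1.10 and 0.840 FPKM in ΔE2 and 1.16, 1.32 and 1.11 FPKM in ΔSE12313-b. It fell 2.51-fold in ΔE2 (-1.25, SE 0.18, adjusted p = 0.000748) and stayed just short of 2-fold in ΔSE12313-b (-0.95, SE 0.18, adjusted p = 0.00253). With a pseudocount of 1 the call in ΔE2 was lost. COL9A3, another of this class, and COL13A1, a transmembrane collagen of adhesion sites, were not called, with -0.66 and -0.28 for COL9A3 and 0.57 and 0.87 for COL13A1. For COL13A1 the 60 other genes tested within 5 Mb had medians of 0.31 and 0.88.

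Of the 34 members without a test, 10 had 0 reads in all libraries and another 10 had at most 3 reads in every library, the number taken here as the floor. The other 14 had more than 3 reads in at least 1 library, and the highest level among the 34 was 0.334 FPKM, for LAMB4. When the filter was lowered to any FPKM above 0 in 2 or more libraries, 3 of them were called against control. They are named here after their values were seen. Of all 17895 genes tested with that filter, 1657 were called higher and 1480 lower in ΔE2, and 2134 and 1469 in ΔSE12313-b. LAMB4 had 10 and 15 reads in the controls, 2, 6 and 5 in ΔE2 and 12, 15 and 19 in ΔSE12313-b (-1.11 in ΔE2, adjusted p = 0.0158). For COL11A2, reads numbered 19 and 16 in the controls, 12, 9 and 7 in ΔE2 and 2, 7 and 7 in ΔSE12313-b (-1.11 in ΔSE12313-b, adjusted p = 0.00389). For COL6A5 they numbered 3 and 5, then 1, 20 and 3, then 24, 19 and 40 in the same order (1.10 in ΔSE12313-b, adjusted p = 0.0372). At this depth the 20 members at the floor cannot be told apart from a count of 0, a limit that covers counting error only.

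Set directly against each other, the deletions differed most in LAMB3 and COL8A1. LAMB3 was lower in ΔE2 than in ΔSE12313-b (-1.05, SE 0.16, adjusted p = 0.00301) and was the 1 member called, with 0 called higher by limma or by voom. The LAMB3 difference stayed under 2-fold without ΔE2 replicate 2 (-0.92), ΔSE12313-b replicate 1 (-0.99) or ΔSE12313-b replicate 2 (-0.98). At an unadjusted p under 0.05 in limma, 5 members were higher and 13 lower. The share of all genes at that threshold was not counted, so these counts cannot be read as a result about the members. Of all genes tested, 1.6% were called higher and 2.63% lower in this comparison, and the members' median was -0.35 against -0.11. COL8A1 came next with 1.00 (SE 0.09, adjusted p = 0.000545), which is just below 2-fold before rounding and was called without ΔE2 replicate 2 or 3 or without ΔSE12313-b replicate 1. An adjusted p under 0.05 was reached by 11 members, 1 higher and 10 lower in ΔE2, and by 26% of all genes. Among the 10 were AGRN (-0.82, adjusted p = 0.00266), LAMB2 (-0.76, adjusted p = 0.00171), COL4A2 (-0.69, adjusted p = 0.00278), COL4A1 (-0.62, adjusted p = 0.014), LAMB1 (-0.52, adjusted p = 0.00295) and COL17A1 (-0.88, adjusted p = 0.0245). LAMA5 differed little, by -0.26 (SE 0.07, adjusted p = 0.0305). For SPARC the interval of the difference was -0.39 to 0.38, for COL5A1 -0.30 to 0.23, for COL4A5 -1.07 to 0.36 and for COL7A1 -1.38 to 0.59. Centring the libraries changed the calls from 0 higher and 1 lower to 1 higher and 0 lower, because COL8A1 passed 2-fold and LAMB3 reached only -0.92.

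**Figure D4:**
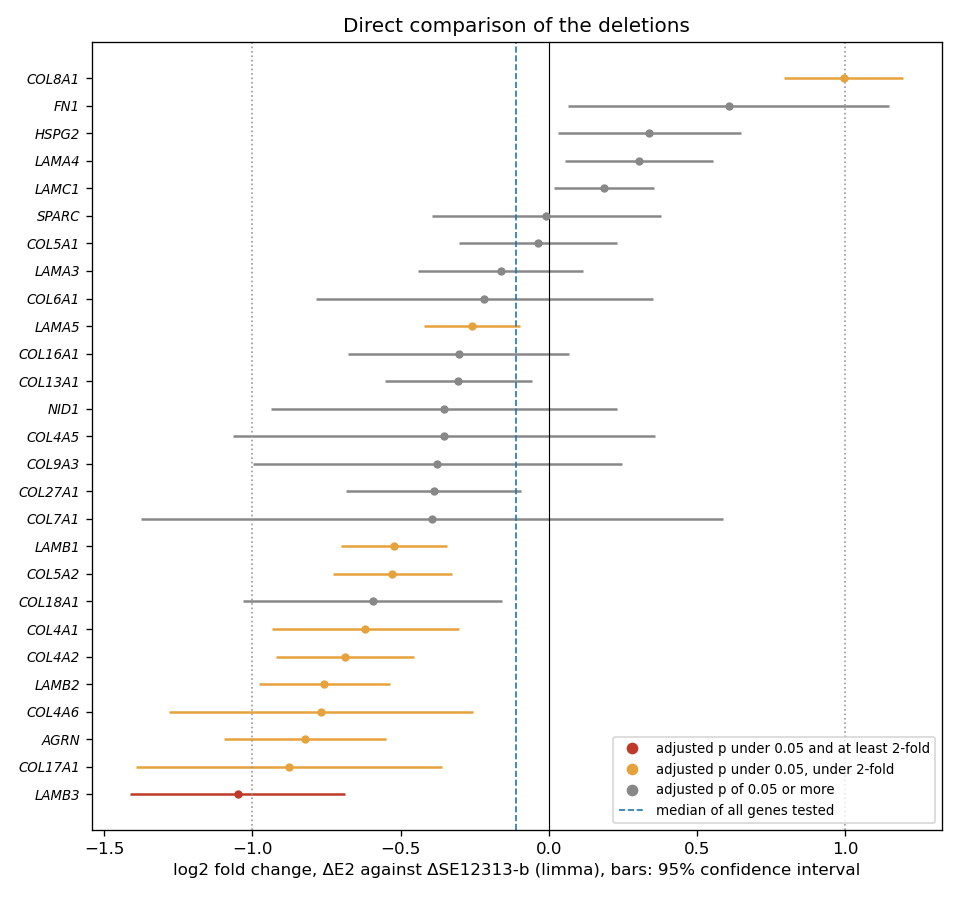
Log2 fold change of each tested gene in ΔE2 against ΔSE12313-b with 95% confidence intervals, ordered by size, with red for genes called, yellow for genes with an adjusted p under 0.05 but under 2-fold and grey for the others. COL8A1 (1.00) and LAMB3 (-1.05) stand at opposite ends.

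Genes that fold, process, bind or accompany these proteins were counted from fixed lists. Of all genes tested, 11.2% were called higher and 8.36% lower in ΔE2, and 14.7% and 7.83% in ΔSE12313-b. Among the folding and secretion genes of collagen (19 of 20 tested), 1 gene was called higher and 0 lower in each deletion. This was P3H2, a prolyl 3-hydroxylase of collagen IV, with 4.55 and 4.29 FPKM in the controls, 10.8, 10.2 and 10.6 FPKM in ΔE2 and 17.4, 10.6 and 7.76 FPKM in ΔSE12313-b (1.24, adjusted p = 0.00659, and 1.33, adjusted p = 0.004). The medians of the list were 0.10 (ΔE2) and 0.35 (ΔSE12313-b), beside 0.14 and 0.27 over all genes.

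Of the processing and crosslinking genes, 7 of 15 were tested, with 0 higher and 2 lower in ΔE2 and 1 higher and 1 lower in ΔSE12313-b. The list's medians were -0.26 and -0.10, beside 0.14 and 0.27 over all genes. PXDN, peroxidasin, which forms the sulfilimine bonds between collagen IV trimers, had 259 and 240 reads in the controls, 137, 1 and 0 reads in ΔE2 and 0 reads in all 3 ΔSE12313-b clones. Against a floor of 3 reads per library it was at least 105-fold lower in ΔSE12313-b (adjusted p = 0.0034), and in ΔE2 its mean was 12.0% of the control mean (adjusted p = 0.0145), with 1.05 FPKM in clone 1 and at most 0.009 FPKM in the others. Both controls and that clone alone reached the filter of 0.5 FPKM, so PXDN was tested through the group where it is high. Its calls are part of the list's lower counts in both deletions. PCOLCE, which enhances the cleavage of procollagen, fell in ΔE2 (-1.47, adjusted p = 0.000327), and LOXL1, a lysyl oxidase that crosslinks matrix proteins, rose in ΔSE12313-b (1.13, adjusted p = 0.00146).

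Of the matrix receptors, 19 of 22 were tested, and 2 were called higher and 4 lower in ΔE2, against 1 higher and 3 lower in ΔSE12313-b. These counts include ITGA11 in both deletions and DDR2 in ΔE2, which entered the test only through the group where they were high. The medians were -0.26 and 0.14, beside 0.14 and 0.27 over all genes. The list holds 4 α subunits of collagen-binding integrins, and of these ITGA2 and ITGA10 fell in both deletions. ITGA2 had 64.4 and 67.2 FPKM in the controls, 20.6 to 22.7 FPKM in ΔE2 and 29.3 to 35.6 FPKM in ΔSE12313-b (-1.59, adjusted p = 7.44e-06, and -1.02, adjusted p = 5.83e-05). ITGA10 fell by 2.43 and 2.57 on the log2 scale (adjusted p = 0.015 and 0.0104). ITGA11 was low already in the controls, with 51 and 45 reads, and had 1 to 10 reads in the clones (-2.22, adjusted p = 0.00592, and -2.60, adjusted p = 0.00229), so it entered the test only through the controls. ITGA1 overlapped the controls and was not called (-1.02, adjusted p = 0.219, and -0.37, adjusted p = 0.645). ITGA3, the α subunit of a laminin receptor, fell in ΔE2 (-1.09, adjusted p = 9.89e-05), while ITGAV and DDR2 rose there (1.22 and 1.40). DDR2 was low, with 22 and 36 reads in the controls and 105 to 139 reads in ΔE2, and it entered the test only through the ΔE2 clones. LRP4, a receptor of agrin at the synapse, rose in ΔSE12313-b (1.52, adjusted p = 0.000852). ITGA1, ITGA3, ITGAV and DDR2 are outside the rule for named genes and were added after their values were seen.

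Of 32 other basement membrane and matrix genes, 11 were tested, with 3 higher and 2 lower in ΔE2 and 4 higher and 2 lower in ΔSE12313-b. These counts include TNC in both deletions and MATN2 in ΔSE12313-b, which entered the test only through the group where they were high. The list's medians were 0.49 and 0.47, beside 0.14 and 0.27 over all genes. TNC, tenascin-C, had 8.32 and 8.84 FPKM in the controls, 0.037, 0.150 and 0.403 FPKM in ΔE2 and 0.094, 0.315 and 0.029 FPKM in ΔSE12313-b (-5.07, adjusted p = 0.000377, and -5.31, adjusted p = 0.000232), and it too entered the test only through the controls. PAPLN, papilin, fell as well (-1.74 and -1.02), and TGFBI, a collagen-binding adhesion protein, rose in both deletions (1.57 and 1.27). MATN2, matrilin-2, had 9 and 12 reads in the controls, 1 to 6 reads in ΔE2 and 102 to 226 reads in ΔSE12313-b, where it was called higher (3.16, adjusted p = 0.000437) after entering the test only through those clones. The other calls, named after their values were seen, were THBS1 (1.34) and TINAGL1 (1.08) in ΔE2 and ECM1 (1.22) and MMRN2 (1.05) in ΔSE12313-b, all higher.

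Markers of cell types were read beside these values. Of 13 endothelial markers 11 were tested, and their summed FPKM was 474 to 476 in the controls, 527 to 760 in ΔE2 and 519 to 729 in ΔSE12313-b, with CLDN5 at the floor in every library. ERG and PECAM1 rose and VWF fell in both deletions, and ESAM, added after its values were seen, rose in ΔE2 (1.08, adjusted p = 0.00702). EMCN had 17 and 18 reads in the controls, 0, 11 and 0 reads in ΔE2 (-1.72, adjusted p = 0.0301) and 69, 40 and 101 reads in ΔSE12313-b (1.35, adjusted p = 0.0656), the group through which alone it entered the test. Of 10 epithelial markers 3 were tested, the keratins KRT7, KRT8 and KRT18, and all 3 rose in both deletions (1.14 to 1.85), so that the list's sum went from 361 to 363 FPKM to 1085 to 1210 FPKM in ΔE2 and 811 to 1069 FPKM in ΔSE12313-b. CDH1, ESRP1 and GRHL2 were at the floor. Of the other untested markers, CLDN4 had 10 and 5 reads in the controls, 0 to 3 in ΔE2 and 3 to 5 in ΔSE12313-b. EPCAM had 12 and 5 reads, then 4 to 7 and 0 to 3, and for each gene every clone lay below both controls in FPKM. CLDN7 and KRT19, with at most 7 reads in any library, overlapped the controls in ΔE2 and lay above them in ΔSE12313-b. Of 10 fibroblast and mural markers 3 were tested, with sums of 29.8 to 30.9, 23.5 to 45.4 and 44.6 to 66.5 FPKM, and CNN1, DES and PDGFRA were at the floor. RGS5 made up most of these sums and rose in ΔSE12313-b (1.18, adjusted p = 0.0087). ACTA2 fell in both deletions (-2.80, adjusted p = 0.00369, and -2.52, adjusted p = 0.00519). THY1 had 11 and 18 reads in the controls, rose to 151 to 206 reads in ΔE2 (3.07, adjusted p = 6.23e-05) and had 0 reads in all ΔSE12313-b clones, at least 6.12-fold lower against the floor of 3 reads per library (adjusted p = 8.95e-05). THY1 entered the test only through the ΔE2 clones, where it was high. The part of these markers in the changes of the matrix genes was not tested.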

How the data were processed

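RNA-seq libraries were made with the NEBNext Ultra II Directional kit and sequenced single-end. Per the labels and methods, reads were trimmed with Trim Galore 0.4.4 and mapped to GRCh37/hg19 with STAR 2.5.4b. The authors deposited FPKM for 65572 RefSeq transcripts, and the tool, RefSeq release and strand setting behind this table are not given in the sources used here. FPKM times length gave whole reads (100% of values checked, within 0.1 read), used for depth, floors (3 reads) and 1 alternative.

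Each gene was represented by its transcript of highest mean FPKM (42 lines without a gene were dropped). Genes reaching 0.5 FPKM in 2 or more libraries entered limma 3.58.1 (R 4.3.3) as log2(FPKM + 0.1) (trend, 3 groups in 1 model, two-sided, Benjamini-Hochberg adjustment). Each deletion was set against control, and ΔE2 against ΔSE12313-b. The authors' own calls rest on gene counts that were not used here. The script was tested on simulated data. Values in every library are given for members called in either deletion and for 15 fixed endothelial basement membrane genes. From each list, up to 3 called genes per deletion with the largest changes are named. The members and lists were chosen with earlier results of these data known. A gene that also matched the selection is not reported here. Coordinates are 1-based hg19. Floors and reads cover counting error only.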

Additional observations from a re-analysis of the deposited data

Results flagged for a closer look

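Of 11 members with an adjusted p under 0.05 in the direct test of the deletions (limma, ΔE2 against ΔSE12313-b), 1 also reached 2-fold. LAMB3 was lower in ΔE2 by a log2 fold change of -1.05, with all 3 ΔE2 clones below all 3 ΔSE12313-b clones and below both controls. It was under 2-fold with centred libraries, with quantile normalization and without ΔE2 replicate 2, ΔSE12313-b replicate 1 or ΔSE12313-b replicate 2.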

How the results depend on the processing

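The alternatives were pseudocounts of 0.01 and 1, FPKM above 0 in 2 libraries, centred libraries, quantile normalization, the replicate number as a block, only the groups compared, the longest transcript, voom on the recovered reads, a 1.5-fold threshold and each library left out. Of 642 single-member values recomputed, 602 kept direction and call, 12 lost the call, 13 gained it and 15 changed direction. With a 1.5-fold threshold, 4 members were higher and 10 lower in ΔE2, beside 3108 and 1945 of all 13789 genes. In ΔSE12313-b, 7 members were higher and 7 lower, beside 4124 and 1678 of all genes. For ΔE2 against ΔSE12313-b, 1 member was higher and 7 lower, beside 492 and 1139 of all genes. Quantile normalization gave 7 lower in ΔSE12313-b, and 1 higher and 0 lower between the deletions. Between the deletions, centring gave 1 higher and 0 lower, and the filter at FPKM above 0 gave 2 lower. Leaving out 1 library gave 0 to 1 higher (1, COL8A1, without ΔE2 replicate 2 or 3 or ΔSE12313-b replicate 1) and 0 to 1 lower (0 without ΔSE12313-b replicate 1).

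Direction changed in members that were not called. Centring and quantile normalization gave -0.037 and -0.19 for HSPG2 and -0.093 and -0.27 for LAMC1 in ΔE2, and in ΔSE12313-b -0.22 and -0.22 for COL4A1, -0.044 and -0.15 for COL4A2, -0.064 and -0.27 for LAMB1 and -0.15 and -0.31 for LAMB2. Leaving out 1 ΔE2 clone moved HSPG2 between -0.035 (without ΔE2 replicate 2) and 0.24, and leaving out 1 ΔSE12313-b clone moved NID1 between -0.28 and 0.14 (0.077 without ΔSE12313-b replicate 1). COL16A1 in ΔSE12313-b was called after centring (-1.23), quantile normalization (-1.02) and voom (-1.005), and COL8A1 (-1.06) and LAMB3 (-1.09) after quantile normalization. Without either control library COL7A1 was not tested, and 26 members were. LAMB3 between the deletions was -0.92 without ΔE2 replicate 2, -0.99 without ΔSE12313-b replicate 1 and -0.98 without ΔSE12313-b replicate 2. In the first and last of these, the 1 member called lower was COL17A1 and not LAMB3. The causes were not tested. A pseudocount of 1 gave 2 members higher and 6 lower in ΔE2, where COL7A1 and COL16A1 lost their calls. In ΔSE12313-b it gave 3 higher and 3 lower, and COL7A1 lost its call. Over all genes it called 1065 higher and 653 lower in ΔE2 and 1411 and 593 in ΔSE12313-b.

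After centring within each group, libraries of different groups with the same replicate number had r from -0.08 to 0.11. Those with different numbers had r from -0.08 to 0.14. With so few libraries per group, these values cannot show whether libraries with the same number share more than the number. With the number as a replicate block, members called were 2 higher and 8 lower in ΔE2, 3 and 3 in ΔSE12313-b and 0 and 1 between the deletions. COL7A1 in ΔSE12313-b (-1.49, adjusted p = 0.0603) was not called in this fit.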

Other observations

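Clones of 1 group differed in some members. ΔE2 clone 2 had the highest COL4A5 (4.44 FPKM against 1.99 and 2.32), SPARC (86.2 against 55.3 and 61.5) and HSPG2 (35.3 against 27.0 and 24.1) of its group, and the lowest FN1 (6.07 against 10.6 and 12.4). ΔSE12313-b clone 3 had the highest COL17A1 (22.4 against 13.4 and 13.1) and NID1 (5.87 against 3.51 and 3.19). The 8 antisense genes named for members reached at most 0.02 FPKM.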
